A study of Mus musculus with 12 samples.

Results

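Transcripts of 10 genes that store, move and release iron or break down heme were followed across 12 bone marrow samples: the ferritin chains Fth1 and Ftl1, the ferritin cargo receptor Ncoa4, the heme-degrading enzymes Hmox1, Blvra and Blvrb, the importers Tfrc, Slc11a1 and Slc11a2, and the iron exporter Slc40a1. The genes were taken by symbol, and all 10 were found among the 21958 genes of the deposited table and among the 12549 genes with enough counts to be tested. Sequencing of poly(A) RNA covered bone marrow cells of wild-type (WT) mice in 3 groups of 4. Mice of the control group were untreated. Those of the model group had bone marrow suppression brought on by CTX, and those of the cornus group were given self-assembled nanoparticles of Cornus officinalis, a dogwood. No strain, sex, age, dose or sampling time is stated for any group, nor whether CTX was part of the cornus treatment. The samples are named biological replicates in the study's design, without a statement that each is a separate animal, so the p-values below measure the spread between these samples, which may be technical.

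Cells take up transferrin-bound iron through the transferrin receptor, pass it from the endosome to the cytosol through a divalent metal transporter, store the excess in ferritin shells and export it through ferroportin. In the marrow, maturing red cells are the main consumers of iron, while resident macrophages engulf old red cells, open the heme ring and return the iron to the blood. Iron-regulatory proteins adjust this balance after transcription. In iron-poor cells they bind a hairpin called the iron-responsive element, which blocks translation when it lies before the coding sequence and stabilises the message when it lies after it.

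The hairpins are shown because, where the letters searched were found, they lie before the coding sequence in some genes and after it in another. The letters searched were a C, any 5 bases, CAGTG and any 6 bases, on the sense strand of GENCODE M21 coding transcripts (GRCm38), where the 5 bases before CAGTG had to pair with the last 5 bases and G to T pairs were allowed. They occurred before the coding sequence of Fth1, Ftl1 and Slc40a1 and at 4 places after that of Tfrc. Each is printed with flanks as a stretch of 30 bases, in which capitals mark the bulged C and the CAGTG of the loop.
Fth1 5′ UTR: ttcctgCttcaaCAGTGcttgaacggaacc
Ftl1 5′ UTR: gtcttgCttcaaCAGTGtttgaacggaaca
Slc40a1 5′ UTR: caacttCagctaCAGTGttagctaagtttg
Tfrc 3′ UTR, site 1: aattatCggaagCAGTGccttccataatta
Tfrc 3′ UTR, site 2: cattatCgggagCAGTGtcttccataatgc
Tfrc 3′ UTR, site 3: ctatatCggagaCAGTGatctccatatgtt
Tfrc 3′ UTR, site 4: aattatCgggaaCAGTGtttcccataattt
The 5′ UTR stretches lie in exon 1, at chr19:9982732-9982761 on the plus strand for Fth1, chr7:45459778-45459807 on the minus strand for Ftl1 and chr1:45925464-45925493 on the minus strand for Slc40a1. The Tfrc sites lie in exon 19 on the plus strand, at chr16:32631219-32631248, chr16:32631598-32631627, chr16:32631663-32631692 and chr16:32631710-32631739. The same letters were found in the 5′ UTR of 31 of 20899 genes (0.148%) and in the 3′ UTR of 129 of 21022 genes (0.614%). They were not found in the other 6 genes, Slc11a2 among them, which says only that these letters are not in those transcripts. A hairpin with other loop letters or an unpaired base in the stem would be missed. Read counts do not measure translation.

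Library totals lay between 13902122 and 19139771 counts, and the counts of the 10 genes ranged from 79 (Slc11a2 in cornus 1) to 20423 (Fth1 in control 4). Controls 1 to 3 were nearly alike: a chi-square comparison of the counts, over genes with at least 20, gave 1.71 to 1.93 per degree of freedom between them and 13.6 to 159.7 for the other 15 pairs within a group. A second fit therefore treats the sum of these 3 libraries as a single control, and "rose" and "fell" are used against control only for genes with an adjusted p under 0.05 in both. The summed fit gives control 4 more weight, so it does not guard against that library. The share of hemoglobin transcripts was 9.80% in control 4 and 2.45% to 2.49% in the remaining controls, but 0.0249% to 0.942% in the model and 0.0218% to 1.57% in the cornus libraries. The summed level of 19 erythroid markers was 29579 to 114418 CPM (TMM-scaled read counts relative to library size) in control, 645 to 14935 in model and 371 to 20825 in cornus, and none of them was at 0 in any library. Globins made up most of this sum in control 4, with Hba-a1 at 53235 and Hbb-bs at 41071 CPM, so it partly repeats the hemoglobin share. Summed late neutrophil markers (15 genes) were at 44874 to 70082 CPM in control, 26271 to 49929 in model and 48337 to 74634 in cornus. S100a8 and S100a9 made up a large part of this sum, with means of 14890 and 23126 of 68941 CPM in controls 1 to 3. Summed resident macrophage markers (15 genes, of which Csf1r is also among the monocyte markers) were at 535 to 566, 412 to 603 and 521 to 611 CPM, with at most 1 marker at 0 in a library. In bulk RNA, fewer cells of a type and less RNA per cell cannot be told apart.

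Compared per length, Fth1 was the most abundant of the transcripts in controls, at 264 ± 90.1 FPKM (SD, n = 4). Tfrc followed at 114 ± 34.7, Ftl1 at 74.0 ± 22.7, Blvrb at 53.6 ± 30.5 and Hmox1 at 40.8 ± 1.88 FPKM, and the ranges of neighbours in this order overlapped below Fth1. Slc11a1 (18.0 ± 3.06), Ncoa4 (17.5 ± 4.23) and Slc40a1 (17.2 ± 2.40) had overlapping ranges of FPKM, as did Blvra (10.5 ± 1.88) and Slc11a2 (7.77 ± 2.604). In the model group Fth1 was at 115 ± 27.1 FPKM and overlapped with Tfrc at 83.1 ± 35.7, while Ncoa4 came next after Ftl1 at 27.2 ± 2.73, just above the range of Hmox1 at 18.2 ± 4.40. The cornus group had the same first 5 genes in the same order, with Ncoa4 at 30.8 ± 1.64 and Hmox1 at 22.6 ± 2.80 FPKM. The deposited lengths exceed the longest coding transcript in GENCODE by 1.12 times for Hmox1 to 2.71 times for Blvrb, so the order is approximate. Per kilobase of that transcript the control mean was 145 for Blvrb, against 144 for Tfrc and 102 for Ftl1. On this scale the mean of Ncoa4 was above that of Ftl1 in model (62.6 against 53.6) and in cornus (70.9 against 57.4).

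Ftl1 counts are uncertain: 78.9% of the stretches of 50 bases in its longest coding transcript also occur in transcripts of other genes, among them the pseudogenes Ftl1-ps1, Ftl1-ps2 and Ftl2-ps. For Ncoa4 the share was 43.1%, all with the predicted gene Gm6768. It was 4.01% for Fth1, 0.838% for Slc11a1 and 0 for the other 6 genes.

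The comparison of model with control addresses the state of iron genes under CTX. Ferritin, heme oxygenase and the phagosomal transporter Slc11a1 fell, while the ferritin cargo receptor Ncoa4 rose. Of the 10 genes, edgeR called 5 lower and 1 higher (adjusted p under 0.05), where 20.9% of all genes tested were called lower and 23.2% higher. With both fits required, 4 were lower and 1 higher, against 15.8% and 17.7% of all genes. In 5 genes all model values lay below all control values (20.8% of all genes) and in 1 above (23.3%). The median log2 change of the 10 genes was -1.07, beside -0.00 over all genes. Over all genes, limma on log2(FPKM + 0.1) called 3377 higher and 2014 lower where edgeR called 2907 and 2624.

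The comparison of cornus with model sets the nanoparticle group beside the CTX group. As it is not stated whether cornus mice also received CTX, a difference cannot be assigned to the nanoparticles alone. edgeR called none of the 10 genes, and 19 of 12549 genes overall (0.0797% of genes higher and 0.0717% lower). At an unadjusted p under 0.05 there were 3 genes, Hmox1, Slc40a1 and Slc11a1, all with higher values in cornus, against 20.8% of all genes in either direction. DESeq2 called Slc11a1 alone of the 10, where over all genes it called 414 higher and 370 lower, and limma on FPKM called none of the 10. Slc11a1 was also the gene of the 10 whose cornus and model ranges did not overlap (6.05% of all genes were higher without overlap and 7.45% lower). The median log2 change was 0.16, beside -0.02 over all genes. On log2(FPKM + 0.1) the median of all genes was -0.13, and limma called 50 genes higher and 473 lower. Without control 4, edgeR called 499 genes higher and 536 lower, none of the 10 among them.

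The comparison of cornus with control, which uses the same control libraries, had the same number of calls: 5 lower and 1 higher in edgeR, or 4 and 1 in both fits. Over all genes, 23.6% were called lower and 24.0% higher, or 19.7% and 18.6% in both fits. Fth1, Ftl1, Hmox1 and Slc11a2 fell and Ncoa4 rose. In 6 genes all cornus values lay below all control values (24.4% of all genes) and in 1 above (24.2%), and the median log2 change was -0.82, beside -0.02 over all genes.

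**Figure D1:**
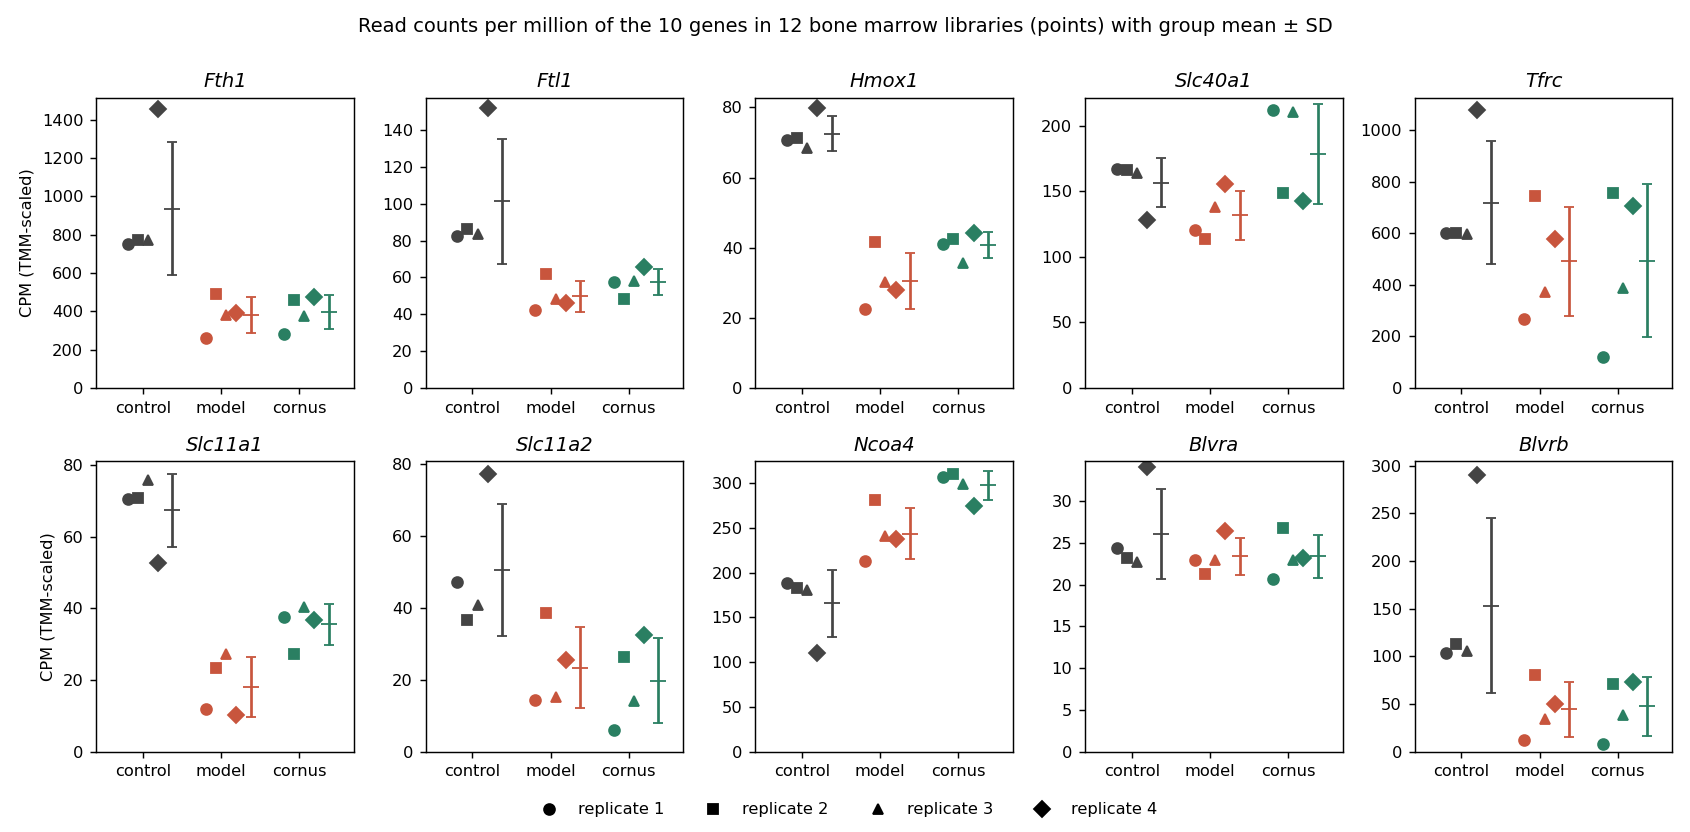
Each panel plots the TMM-scaled CPM of 1 gene, with a point per library (marker shape for the replicate number) and the group mean with its SD beside them; every axis starts at 0. Control 4 stands above controls 1 to 3 in Fth1, Ftl1, Hmox1, Tfrc, Slc11a2, Blvra and Blvrb and below them in Slc40a1, Slc11a1 and Ncoa4.

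**Figure D2:**
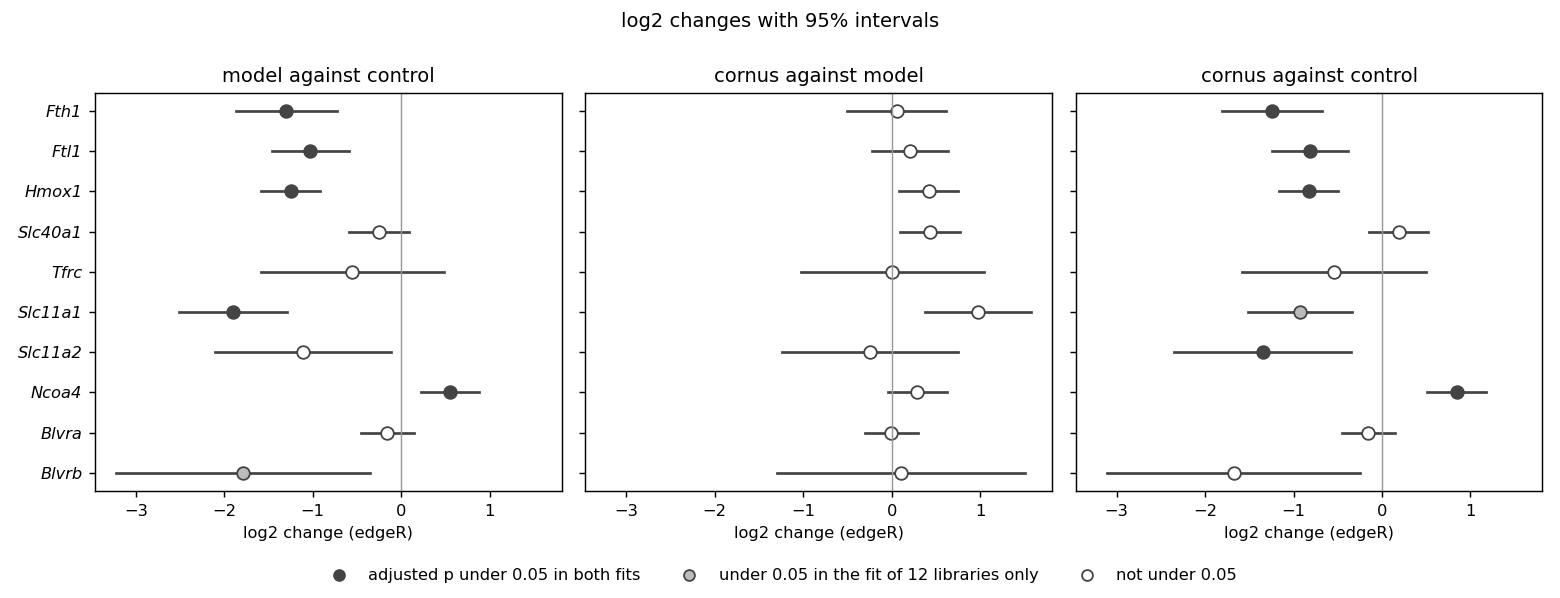
The log2 change of each gene in the 3 comparisons is shown as a point with its 95% interval from edgeR, filled dark where the adjusted p was under 0.05 in both fits, grey where it was so in the fit of 12 libraries only, and open elsewhere. In the middle panel, cornus against model, all points are open and the intervals of Hmox1, Slc40a1 and Slc11a1 do not reach 0.

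Fth1 (ENSMUSG00000024661, chromosome 19, 9957962 to 9962462 in the deposited coordinates, whose build no source names) encodes the ferritin heavy chain, which oxidises iron as it enters the shell. The GRCm38 hairpin positions above lie outside the deposited intervals of Fth1, Ftl1, Slc40a1 and Tfrc, and cannot be placed on them. Controls 1 to 4 had 750.4, 770.4, 770.0 and 1456 CPM. Model samples 1 to 4 had 259, 493, 383 and 389 CPM, and cornus samples 279, 457, 373 and 476 CPM. Every treated library lay below every control, and model and cornus overlapped across nearly their whole range. Fth1 fell by 1.30 ± 0.26 (SE) on the log2 scale in model against control (edgeR adjusted p = 0.00204, 0.00525 with controls 1 to 3 summed). In cornus, against the same controls, it fell by 1.24 ± 0.26 (edgeR adjusted p = 0.00271, 0.00559 summed). The difference between cornus and model was 0.06, with a 95% interval of -0.50 to 0.61. Without model 1 and cornus 1, the libraries with the least hemoglobin, the changes against control were -1.15 and -1.10 (edgeR adjusted p = 0.00531 and 0.00638).

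Ftl1 (ENSMUSG00000050708, chromosome 7, 45107368 to 45109308) encodes the light chain, which helps form the iron core. Its 4 controls had 82.7, 86.5, 83.7 and 152 CPM. The model libraries had 42.4, 62.1, 48.2 and 45.9 CPM and the cornus libraries 57.5, 48.4, 57.8 and 65.9 CPM. All treated values were again below all control values. Ftl1 fell by 1.03 ± 0.20 in model against control (edgeR adjusted p = 0.00166, 0.00347 summed) and by 0.82 ± 0.20 in cornus against control (0.00596, 0.00643 summed). Cornus was 0.21 above model, with an interval of -0.22 to 0.64. In model against control the change was -1.25 with controls 1 to 3 summed and -0.76 without control 4. By deposited FPKM the heavy chain was above the light chain in all 12 libraries. The ratio of Fth1 to Ftl1 FPKM was 3.44 to 3.70 in control, 2.36 to 3.27 in model and 1.88 to 3.65 in cornus. Its size is uncertain, as 78.9% of the 50-base stretches of Ftl1 occur in other genes, beside 4.01% for Fth1. The deposited lengths also exceed the longest coding transcript unequally, 2.32 times for Fth1 and 1.38 times for Ftl1. The lowest ratio of each treated group was in its replicate 1, the library with the least hemoglobin.

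Ncoa4 (ENSMUSG00000056234, chromosome 14, 31881822 to 31901812) encodes the receptor that carries ferritin to the lysosome, where its iron is released. Controls 1 to 3 had 189, 183 and 181 CPM and control 4 had 110.0 CPM. The model libraries had 213, 281, 241 and 238 CPM, and the cornus libraries 307, 311, 299 and 274 CPM. All 8 treated libraries were above all 4 controls, and cornus overlapped with model only through cornus 4 and model 2. Ncoa4 rose by 0.55 ± 0.15 in model against control (edgeR adjusted p = 0.0120, 0.0171 summed) and by 0.84 ± 0.15 in cornus against control (0.00122, 0.00469 summed). Between cornus and model it differed by 0.29, with an interval of -0.04 to 0.62 (edgeR adjusted p = 0.295). In model against control the change of Ncoa4 was 0.72 with controls 1 to 3 summed and 0.40 without control 4. The rise stood beside the fall of its cargo: the ratio of Ncoa4 to Fth1 FPKM within a library was 0.0280 to 0.0932 in control, 0.211 to 0.304 in model and 0.214 to 0.407 in cornus.

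Hmox1 (ENSMUSG00000005413, chromosome 8, 75820249 to 75827217) encodes the inducible heme oxygenase, which opens the heme ring into biliverdin, carbon monoxide and iron. Control levels were 70.7, 71.2, 68.4 and 79.9 CPM, so that control 4 was close to the others here. The model libraries had 22.6, 41.6, 30.1 and 27.9 CPM, and the cornus libraries 41.1, 42.4, 35.7 and 44.1 CPM. Controls lay above all treated libraries, and 2 of the 4 cornus values lay above model 2, the highest model value. Hmox1 fell by 1.25 ± 0.15 in model against control (edgeR adjusted p = 0.000112, 0.00180 summed) and by 0.83 ± 0.15 in cornus against control (0.00131, 0.00772 summed). The value in cornus was 0.42 ± 0.15 higher than in model, an interval of 0.09 to 0.75, but this missed the threshold over all genes (edgeR adjusted p = 0.155). Without model 2 it passed, at 0.61 and an adjusted p of 0.0495. Among resident macrophage markers, 7 of 13 tested were called lower in model against control and none higher, beside 20.9% and 23.2% of all genes. In cornus against control 2 were called lower and 3 higher, beside 23.6% and 24.0% of all genes, with a median of -0.01. The summed levels of the groups overlapped, and the part of these cells in the Hmox1 result was not tested.

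The reductases that turn biliverdin into bilirubin behaved differently from each other across libraries. Blvra (ENSMUSG00000001999, chromosome 2, 126912585 to 126939004), the main adult form, had 24.4, 23.1, 22.7 and 34.1 CPM in control, 23.0, 21.2, 23.0 and 26.5 CPM in model and 20.7, 26.8, 22.9 and 23.2 CPM in cornus. The 3 ranges overlapped, and its log2 changes were -0.15 (interval -0.46 to 0.15) in model against control, -0.16 (-0.46 to 0.15) in cornus against control and -0.00 (-0.30 to 0.30) in cornus against model.

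Blvrb (ENSMUSG00000040466, chromosome 7, 27147403 to 27165569) encodes a flavin and biliverdin reductase that is abundant in red cells. Controls 1 to 3 had 104, 113 and 106 CPM and control 4 had 290.5 CPM. The model libraries had 12.3, 80.4, 34.2 and 50.3 CPM, and the cornus libraries 7.51, 71.1, 38.9 and 73.2 CPM. Every treated value was below every control value, and libraries within a treated group differed by up to 6.54-fold in model and 9.75-fold in cornus, the widest spread of the 10 genes in each group. Its log2 change in model against control was -1.79 ± 0.66 (edgeR adjusted p = 0.0438), past the threshold with all 12 libraries but not with controls 1 to 3 summed (0.0583) nor in 9 of the 12 fits with a library left out, the lowest change being -1.27 without control 4 (0.142). In cornus against control it was -1.68 ± 0.66 (edgeR adjusted p = 0.0517, 0.0625 summed), and 0.0382 without model 1 and 0.0498 without model 2. It was called with upper-quartile factors (0.0434), by DESeq2 (adjusted p = 0.0467) and by limma on log2(FPKM + 1) and log2(FPKM + 0.1) (0.0381 and 0.0423), and without both model 1 and cornus 1 (-1.32, 0.0335). Cornus differed from model by 0.11, with an interval of -1.29 to 1.51, and limma on FPKM gave the opposite sign. Blvrb exceeded Blvra 3.73- to 7.49-fold in FPKM in the controls, with ratios of 0.470 to 3.33 in model and 0.319 to 2.78 in cornus libraries.

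Tfrc (ENSMUSG00000022797, chromosome 16, 32427738 to 32451612) encodes the transferrin receptor, the gate for iron in maturing red cells and in dividing cells. Control levels were 602, 601, 597 and 1079 CPM. The model libraries had 268, 745, 373 and 579 CPM, and the cornus libraries 121, 759, 387 and 707 CPM. Model 2, cornus 2 and cornus 4 were above controls 1 to 3, while the replicates 1 of both treated groups were the lowest of all. The log2 change was -0.55 ± 0.48 in model against control (interval -1.59 to 0.49, edgeR adjusted p = 0.362) and -0.54 ± 0.48 in cornus against control (-1.58 to 0.49, 0.365). Between cornus and model the difference was 0.01 (-1.03 to 1.04), a value whose sign changed with the scaling. Relative to ferritin, Tfrc FPKM was 0.416 to 0.450 of Fth1 FPKM in the controls and 0.546 to 0.848 in the model libraries, without overlap. The cornus libraries spread on both sides, with 0.244 in cornus 1 and 0.582 to 0.930 in the others.

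Slc11a2 (ENSMUSG00000023030, chromosome 15, 100285779 to 100322953) encodes the divalent metal transporter that moves transferrin-derived iron out of the endosome. By mean FPKM it was the least abundant of the 10 transcripts in each group. In model its range (2.38 to 6.21) overlapped that of Slc11a1 (2.97 to 7.34). Controls had 47.2, 36.6, 40.8 and 77.1 CPM, model libraries 14.4, 38.4, 15.1 and 25.5 CPM, and cornus libraries 6.12, 26.2, 14.1 and 32.3 CPM. Model 2 lay within the control range, and all cornus libraries lay below it. Slc11a2 fell by 1.35 ± 0.46 in cornus against control (edgeR adjusted p = 0.0300, 0.0488 summed), but not past the threshold without control 4 (0.0935) or cornus 3 (0.0788). In model against control the change was -1.11 ± 0.46, with an edgeR adjusted p of 0.0663, or 0.0320 without model 2 and 0.0276 without cornus 1. DESeq2 called it (adjusted p = 0.0284), as did edgeR on these groups alone (0.0308). Cornus against model gave -0.24, with an interval of -1.24 to 0.76.

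Blvrb, Tfrc, Slc11a2 and Fth1 were lowest in model 1 within the model group and in cornus 1 within the cornus group, the libraries with the lowest erythroid marker sums (645 and 371 CPM). Within the model group all 4 genes were highest in model 2, which also had the highest erythroid sum (14935 CPM). This was not particular to them: Ftl1, Hmox1 and Ncoa4 were also lowest in model 1 and highest in model 2. Their lowest cornus libraries were cornus 2, cornus 3 and cornus 4, in that order. In the cornus group the sum was highest in cornus 2 (20825 CPM), as was Tfrc, whereas Fth1, Slc11a2 and Blvrb were highest in cornus 4. Across all libraries control 4, with the highest sum (114418 CPM), had the highest level of each. Of 19 erythroid markers tested, 4 were called lower in model against control (3 in both fits), close to the 20.9% (15.8%) of all genes, with a median of -1.47. In cornus against control 1 was called lower (5.26% of those tested), below the 23.6% of all genes, with a median of -1.28. The part of red cell content in the levels of these genes was not tested.

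**Figure D3:**
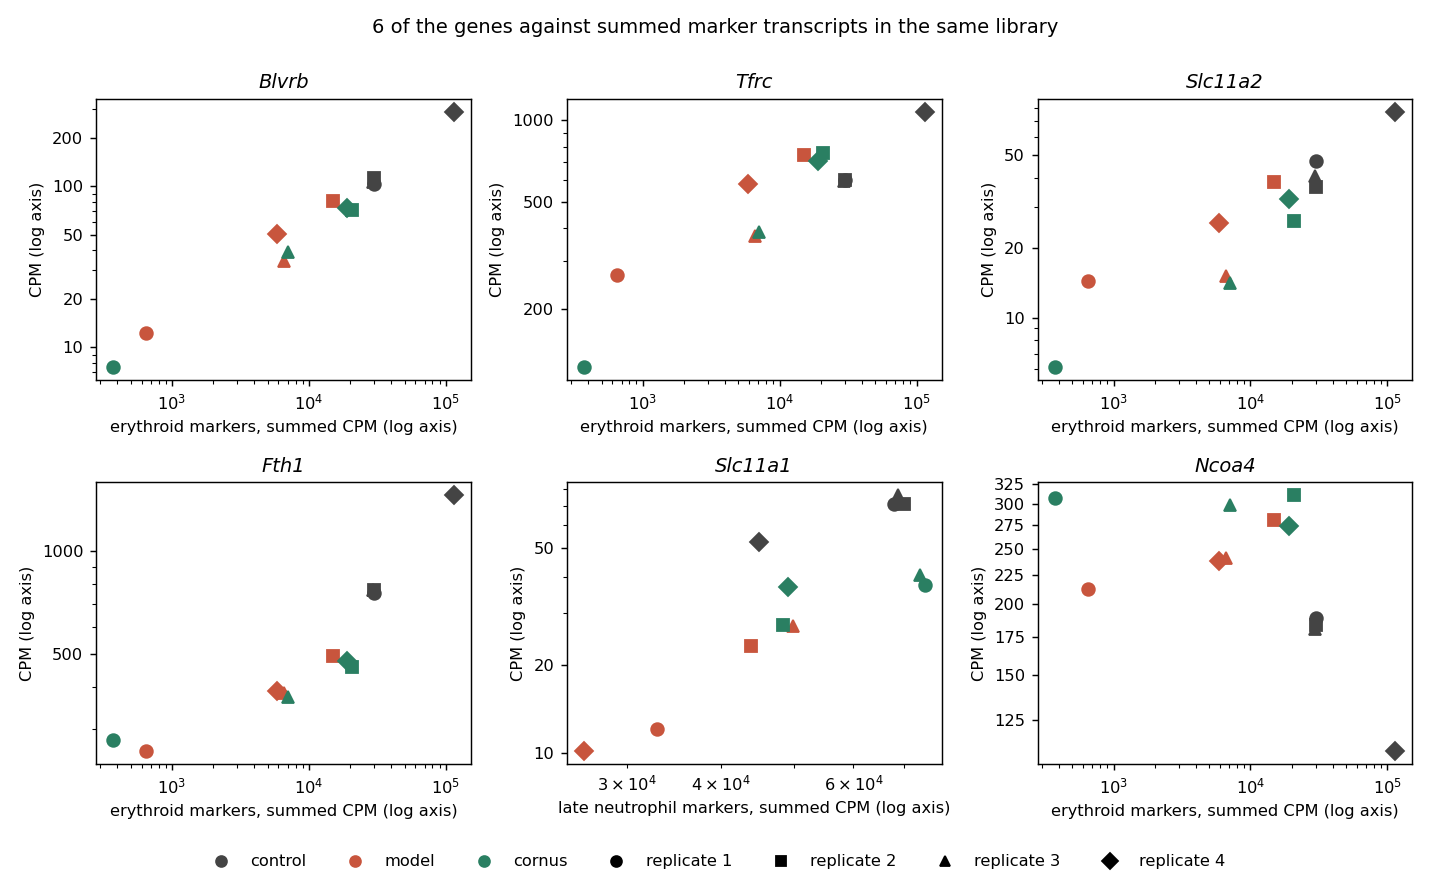
Each point is a library, placed by the summed CPM of 19 erythroid or 15 late neutrophil markers (horizontal, log axis) and the CPM of 1 gene (vertical, log axis), coloured by group and shaped by replicate number. Blvrb runs from 7.51 CPM in cornus 1, with the lowest erythroid sum, to 290.5 CPM in control 4, with the highest, whereas Ncoa4 is lowest in control 4.

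Slc11a1 (ENSMUSG00000026177, chromosome 1, 74414354 to 74425221) encodes a metal transporter of phagosomes in macrophages and neutrophils, a relative of Slc11a2. Controls had 70.7, 70.7, 75.9 and 52.6 CPM. Model libraries had 12.04, 23.3, 27.1 and 10.1 CPM, and cornus libraries 37.6, 27.3, 40.4 and 36.9 CPM. The 3 groups did not overlap, although cornus 2 (27.3) and model 3 (27.1) nearly touched. Slc11a1 fell by 1.90 ± 0.28 in model against control, a 3.73-fold lower level (edgeR adjusted p = 0.000317, 0.00464 summed). The change in cornus against control was -0.93 ± 0.27, past the threshold in the fit of 12 libraries (edgeR adjusted p = 0.0153) but not with controls 1 to 3 summed (0.0804). Cornus was 0.97 ± 0.28 above model, an interval of 0.37 to 1.57. This was not called by edgeR (adjusted p = 0.09996, or 0.0517 to 0.229 with a library left out) but was called by DESeq2 (0.0176).

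Late neutrophil markers shared part of the order of libraries with Slc11a1. Model 4 and model 1 had the lowest values of both within the model group and model 3 the highest, and cornus 2 had the lowest of both within the cornus group. The highest cornus library was cornus 1 for the markers and cornus 3 for Slc11a1. In model against control 12 of the 15 markers were called lower (9 in both fits), beside 20.9% (15.8%) of all genes, with a median of -1.13. In cornus against model none was called by edgeR, but all 15 had higher values, with a median of 0.82 beside -0.02 over all genes. An unadjusted p under 0.05 was reached by 14, beside 20.8% of all genes in either direction. DESeq2 called 9 of them, where over all genes it called 414 higher and 370 lower. With limma on log2(FPKM + 1) 2 were called, where all genes had 58 higher and 492 lower. In cornus against control 3 markers were called lower and 1 higher (3 and 0 in both fits), beside 23.6% and 24.0% (19.7% and 18.6%) of all genes. Control 4 lay below the other controls in Slc11a1 and in the marker sum (44874 CPM). The part of neutrophil content in the Slc11a1 result was not tested.

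Slc40a1 (ENSMUSG00000025993, chromosome 1, 45947228 to 45965683) encodes ferroportin, the iron exporter of macrophages and erythroblasts. Controls had 167, 166, 164 and 128 CPM, model libraries 120.0, 114, 138 and 155 CPM, and cornus libraries 212, 148, 210.3 and 143 CPM. The groups overlapped, and cornus 1 and cornus 3 were above every other library. The log2 change was -0.25 ± 0.16 in model against control (interval -0.59 to 0.09, edgeR adjusted p = 0.207) and 0.19 ± 0.16 in cornus against control (-0.15 to 0.52, 0.337). In cornus against model it was 0.44 ± 0.16, with an interval of 0.10 to 0.78 and an edgeR adjusted p of 0.149. The ratio of exporter to importer transcripts varied widely. Slc40a1 over Tfrc FPKM was 0.0817 in control 4, 0.189 to 0.191 in the other controls, 0.105 to 0.308 in model and 0.135 to 1.20 in cornus, highest in cornus 1. Movement of iron was not measured, and the part of cell content in this ratio was not tested.

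**Figure D4:**
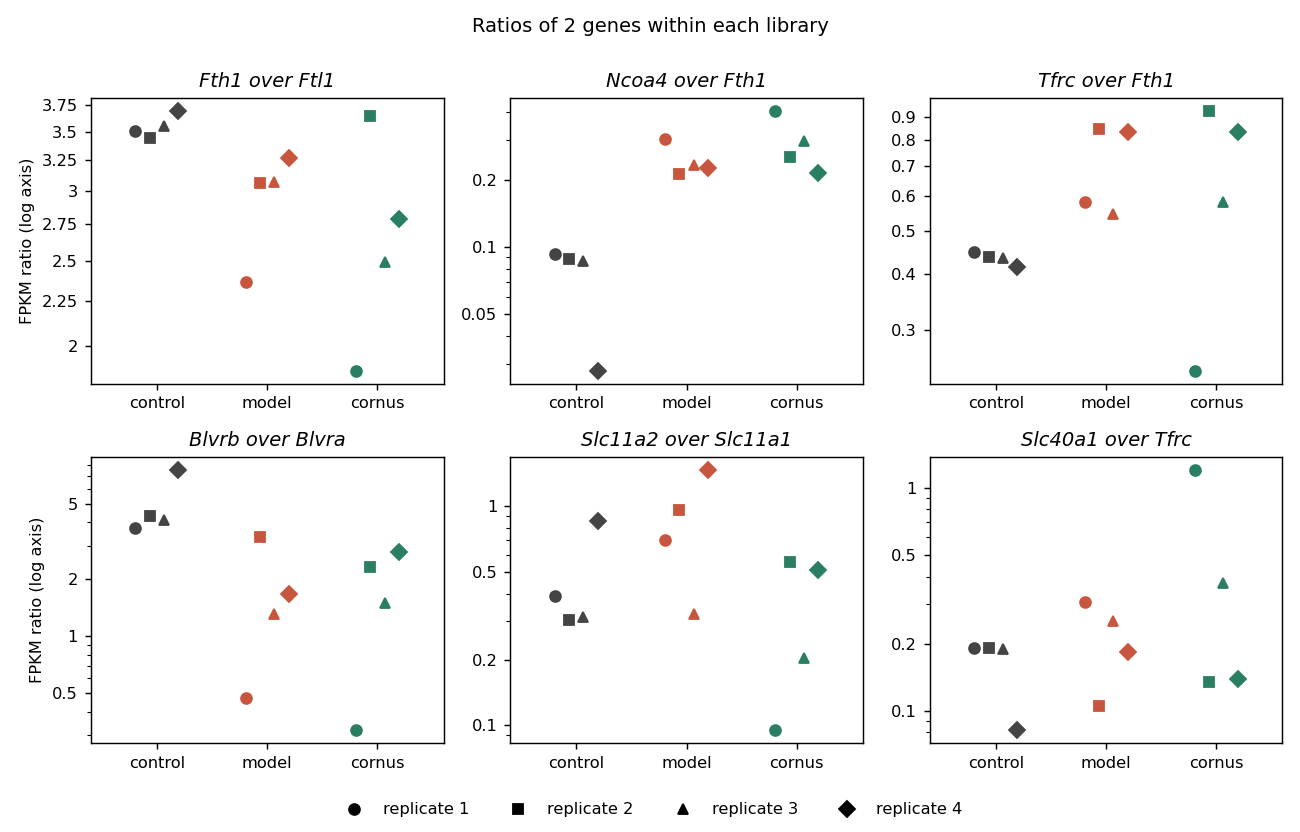
Ratios of the deposited FPKM of 2 genes within each library are plotted on log axes, with a point per library. All model and cornus libraries lie above the controls for Ncoa4 over Fth1 (0.211 to 0.407 against 0.0280 to 0.0932) and below them for Blvrb over Blvra (0.319 to 3.33 against 3.73 to 7.49).

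Other genes of iron and heme handling were read from 6 lists of 92 genes, 81 of them tested. In model against control edgeR called 37 of these (45.7%), beside 44.1% of all genes tested, and in cornus against control 32 (39.5%), beside 47.6%. The lists as a whole thus stood near or below the share over all genes, and the counts below are to be read against the shares of all genes in each direction: 23.2% higher and 20.9% lower in model against control (17.7% and 15.8% in both fits), and 24.0% and 23.6% in cornus against control (18.6% and 19.7%). In cornus against model edgeR called 0 of the 81, with 22 at an unadjusted p under 0.05, beside 20.8% of all genes. DESeq2 called 6, where over all genes it called 414 higher and 370 lower. With limma on log2(FPKM + 1) 1 was called, where all genes had 58 higher and 492 lower.

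Among iron uptake and transport genes, 16 of 20 were tested, and 4 were called lower and 2 higher in model against control (3 and 1 in both fits), near or below the shares over all genes, with a median log2 change of -0.40. Transferrin, Trf, fell by 1.30 ± 0.12 to 68.0 ± 10.1 CPM (SD, n = 4) from 176 in controls 1 to 3 and 142 in control 4, and by 1.05 ± 0.12 in cornus. Slc22a17, a receptor for lipocalin 2, fell by 1.65 ± 0.35 in model from a low level of 1.75 CPM. In cornus against control 2 were called lower and 2 higher (2 and 1 in both fits), with a median of -0.21. The ferroxidase gene Cp had 3.03 and 3.35 CPM in the controls and 6.26 ± 1.49 in cornus, called in the fit of 12 libraries only.

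Among 10 tested iron regulators, 3 were called higher and 2 lower in each comparison with control, near the shares over all genes. In both fits these counts were 2 and 0 for model and 3 and 1 for cornus. Erfe, the erythroblast hormone that suppresses hepcidin, rose by 3.52 ± 0.71 in model (edgeR adjusted p = 0.00215, 0.0218 summed) and by 3.29 ± 0.71 in cornus. Its controls had 0.296 to 0.583 CPM, model libraries 1.36, 3.57, 3.81 and 11.2 CPM, and cornus libraries 1.16, 7.05, 3.23 and 5.70 CPM, so it rose from a level of 5 to 9 counts. Ireb2, which encodes iron-regulatory protein 2, rose by 0.33 ± 0.08 in model against control. Herc2, a ubiquitin ligase that acts on NCOA4, had a change of 0.48 ± 0.14 in model, past the threshold in the fit of 12 libraries only, and rose by 0.82 ± 0.14 in cornus. Neo1, a co-receptor that promotes hepcidin, fell by 1.46 ± 0.29 in cornus, from a low level of 1.76 CPM in control to 0.627 CPM.

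Among genes of heme uptake, transport and breakdown, 14 of 17 were tested. In model against control 1 was called higher and 3 lower (1 and 2 in both fits), again near or below the shares over all genes, with a median of -0.18. Lrp1, a receptor for heme bound to hemopexin, rose by 1.06 ± 0.24 in model and by 1.19 ± 0.24 in cornus. Slc48a1, which carries heme out of the phagolysosome, fell by 0.65 ± 0.22, and Spic, a transcription factor of macrophages that recycle red cells, fell by 1.04 ± 0.36, both in model against control. Cornus against control had 2 called higher and 1 lower (2 and 0 in both fits), among them Bach1, the heme-sensing repressor of Hmox1, which rose by 0.59 ± 0.16. Pgrmc1, a heme-binding membrane protein, was at 33.4 ± 2.42 CPM in cornus and 39.9 and 38.5 CPM in controls, past the threshold in the fit of 12 libraries only.

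All 11 heme synthesis genes were tested, and 4 were called lower and 1 higher in model against control, the same number in both fits, with a median of -1.14. Alas1, the housekeeping form of the first enzyme, rose by 0.94 ± 0.21, while Tmem14c, which carries a heme precursor in mitochondria, and the oxidase Ppox fell by 0.89 ± 0.20 and 1.05 ± 0.30. In cornus against control 2 were lower and 1 higher in both fits, with a median of -1.18: Tmem14c fell by 1.05 ± 0.20 and the decarboxylase Urod fell by 1.27 ± 0.42, and Alas1 rose by 0.83 ± 0.21.

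Of 12 genes of the autophagy route that takes ferritin to the lysosome, 7 were called lower and 2 higher in model against control (6 and 0 in both fits), with a median of -0.46. The lipid-anchored autophagosome genes Map1lc3b, Gabarap and Gabarapl2 fell by 0.98 ± 0.10, 0.73 ± 0.09 and 1.65 ± 0.27. Cornus against control had 5 lower and 3 higher in both fits. There Map1lc3b and Gabarap fell by 0.73 ± 0.10 and 0.51 ± 0.08, and Rb1cc1, a subunit of the kinase complex that starts autophagy, rose by 0.45 ± 0.08.

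The 18 genes of NRF2, the factor that also drives Hmox1 and ferritin under oxidative stress, went both ways. In model against control 4 were higher and 4 lower in both fits, beside 17.7% and 15.8% of all genes, with a median of -0.23. The pentose phosphate enzyme Taldo1 fell by 1.10 ± 0.11, whereas the exporter Abcc1 and the thioredoxin reductase Txnrd1 rose by 0.82 ± 0.13 and 0.50 ± 0.08. In cornus against control 5 were called higher and 4 lower (5 and 3 in both fits), with a median of 0.04. Taldo1, the peroxiredoxin Prdx1 and the malic enzyme Me1 fell by 0.79 ± 0.11, 0.65 ± 0.10 and 2.71 ± 0.47.

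Among 8784 tested genes with a mean of at least 10 CPM, the gene most like each over the 12 libraries was found by the Pearson correlation of log2 CPM. These are the highest of many values, the libraries fall into groups, and no test was made. Blvrb was closest to Prdx2 (0.996), an abundant peroxiredoxin of red cells, Fth1 to Pithd1 (0.995), Tfrc to the heme and drug exporter Abcg2 (0.992) and Slc11a2 to Sphk1 (0.983), a kinase that makes sphingosine 1-phosphate. Slc11a1 was closest to the protease inhibitor Timp2 (0.988), Hmox1 to Tprgl (0.984), Ftl1 to Trir (0.983) and Ncoa4 to the glycosyltransferase Galnt3 (0.983). Slc40a1 was closest to the pentose phosphate enzyme Pgd (0.929).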

How the data were processed

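RNA was extracted with Trizol and poly(A)-selected, per the labels' protocols. Per the submitters' processing notes, fastp 0.22.0, HISAT2 2.1.0 and HTSeq 0.9.1 were used; the build, annotation and strandedness of counting are not given in the sources used here. The authors deposited whole-number read counts per gene and sample, and FPKM, which equalled count over the deposited length and a factor per library (largest relative departure 4.9e-14). The test was the quasi-likelihood F test of edgeR 4.0.16 (R 4.3.3) on all 12 samples by group, after TMM scaling and filterByExpr, with Benjamini-Hochberg adjustment over 12549 genes and a threshold of 0.05. Errors of log2 changes are the absolute change over the square root of F. Alternatives used DESeq2 1.42.0 and limma 3.58.1 (on log2(FPKM + 1) and log2(FPKM + 0.1)), other scalings and filters, and left-out libraries. The genes, lists and tests were chosen with earlier results of these data known. The text names all 10 genes, up to 3 genes per list with the smallest p past the threshold, and the gene most like each of the 10, except genes withheld for evaluation, which are not reported here. Promoter sequences were not used here. The edgeR fit was tested on simulated data.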

Additional observations from a re-analysis of the deposited data

Results flagged for a closer look

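In 7 of the 30 sets of 4 libraries (10 genes in 3 groups), the distance of 1 library to its nearest neighbour, over the whole range, was above Dixon's 95% critical value for 4 samples. Chance flags about 1 in 20 sets, the genes share libraries, and in all 7 sets the library was control 4, beside controls 1 to 3 that are nearly alike. The gap was 0.972 for Fth1 (1456 CPM), 0.945 for Ftl1 (152 CPM), 0.990 for Tfrc (1079 CPM), 0.951 for Blvrb (290.5 CPM) and 0.847 for Blvra (34.1 CPM), all with control 4 highest. It was 0.918 for Slc40a1 (128 CPM) and 0.897 for Ncoa4 (110.0 CPM), with control 4 lowest. The same library held 9.80% hemoglobin transcripts.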

How the results depend on the processing

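Over all alternatives, 688 of the values for single genes kept direction and side of the threshold, 16 lost the threshold, 16 gained it and 30 changed sign; of the counts, 255 stayed within 1.5 times and 45 did not. The cause was not tested. The sign changes concern values near 0. In cornus against model, limma on log2(FPKM + 1) and on log2(FPKM + 0.1) gave -0.0514 and -0.0519 for Fth1, -0.2974 and -0.3077 for Tfrc and -0.1067 and -0.1486 for Blvrb. Tfrc was also at -0.0072 with upper-quartile factors and -0.0040 with no filter. Blvra was at 0.0118 with DESeq2 size factors, 0.0092 in DESeq2, 0.0417 without model 1 and cornus 1, and 0.0327 with controls 1 to 3 also summed. Leaving out 1 library at a time gave -0.2306 to 0.0047 for Blvra in model against control. In cornus against model it gave -0.0768 to 0.2127 for Fth1, -0.2832 to 0.3258 for Tfrc, -0.5928 to 0.1135 for Slc11a2, -0.0864 to 0.0825 for Blvra and -0.1839 to 0.5706 for Blvrb.

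Counts of genes called in cornus against model (10 higher, 9 lower) varied with the method and with control 4. They were 414 and 370 in DESeq2, 58 and 492 in limma on log2(FPKM + 1), 50 and 473 on log2(FPKM + 0.1), and 0 and 0 with the 2 groups alone, with controls 1 to 3 summed, and with these summed and model 1 and cornus 1 left out. Without model 1 and cornus 1 alone they were 0 and 1, and with no filter 6 were higher. Leaving out 1 library gave 0 to 499 higher and 0 to 536 lower, the highest without control 4, and 0 to 1 of the 10 genes higher, which was 1 in DESeq2. With controls summed and without model 1 and cornus 1, a setting added after seeing the data as was its version with all controls, model against control had 1702 higher and 1505 lower, and cornus against control 1851 higher.

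Same-numbered libraries are not paired by the labels. Their deviations from the group means correlated between -0.135 and 0.450 over 12 pairs, 7 of them above 0.1, and 6 of 12 libraries correlated best with their own number, a hint from the data and not the design. With the replicate number as a block, 0 genes were called either way in cornus against model, where Tfrc was at -0.1185 and Blvra at 0.0032. Under the block model against control had 2922 higher and 2804 lower, with 7 of the 10 genes called. The block put Slc11a2 in model against control (-1.21, edgeR adjusted p = 0.0167) and Blvrb in cornus against control (-1.99, 0.00505) past the threshold. Each of the 10 genes had 79 counts or more in every library.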
